A study of Mus musculus with 6 samples.

Results

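The let-7 family of microRNAs (miRNAs, short RNAs that repress target transcripts) was examined with and without Activin in the EB3 line of mouse embryonic stem (ES) cells, of 129/Ola background. The members were taken by name: the mouse miRNAs let-7a, b, c, d, e, f, g and i and their relative miR-98, with passenger strands left out. They were 9 of the 611 mouse miRNAs on the array, and 8 of the 9 were detected and tested. Total RNA from 6 samples had been labelled with Cy3, from 100 ng each, and hybridised to single-colour Agilent miRNA arrays on 1 slide. The titles place 3 samples in an Activin (-) group (control 1 to 3) and 3 in an Activin (+) group (activin 1 to 3). For activin, the labels give 10 ng/ml of Activin during 3 days as embryoid bodies and a further 15 days on gelatin-coated dishes, with harvest on day 18. The labels repeat that culture text for the control samples, which leaves unstated whether control cells were kept as ES cells or differentiated without Activin. No label says that samples of a group were separate cultures, so every p-value here measures only how these samples vary, and that variation may be technical.

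A let-7 miRNA is cut from a hairpin precursor by Drosha and Dicer, is loaded into an Argonaute protein and finds its targets mainly through its seed, bases 2 to 8. Known targets include Hmga2, Lin28a and Lin28b, Ras genes and Myc. In pluripotent cells the LIN28 proteins bind let-7 precursors and hold back their maturation, and mature let-7 is known to build up as ES cells differentiate. Activin is a TGF-beta family ligand that signals through SMAD2 and SMAD3.

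The mature sequences are shown because the members share one seed and differ elsewhere by very few bases, which bears on how an array probe can tell them apart. They come from RefSeq (GRCm38.p6), which matched all 9 names. Each is written 5′ to 3′ with the seed in capitals.
mmu-let-7a: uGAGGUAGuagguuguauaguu
mmu-let-7b: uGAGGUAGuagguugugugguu
mmu-let-7c: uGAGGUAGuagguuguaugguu
mmu-let-7d: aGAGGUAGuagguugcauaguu
mmu-let-7e: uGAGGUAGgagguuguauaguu
mmu-let-7f: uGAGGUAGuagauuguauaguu
mmu-let-7g: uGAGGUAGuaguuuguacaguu
mmu-let-7i: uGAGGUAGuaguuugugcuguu
mmu-miR-98: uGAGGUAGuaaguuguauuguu

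All 9 have the seed GAGGUAG and are 22 bases long, and 14 of the 22 positions hold the same base in all of them. Positions are counted from 1 at the 5′ end, and each change is from let-7a. let-7c differs from let-7a by A19G, let-7e by U9G and let-7f by G12A. let-7b carries A17G and A19G, and is thus 1 base from let-7c. let-7d carries U1A and U16C, the only member without a U at its first base. let-7g carries G12U and U18C, let-7i carries G12U, A17G, U18C and A19U, and miR-98 carries G11A and A19U. Of the 36 pairs of members, 4 differ by 1 base and 10 by 2. Probes for such close sequences could share signal. Probe sequences were not used here, and shared signal was not tested. RefSeq lists 11 mature names with this seed, of which the other 2 (let-7k and miR-1961) were not on the array.

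The precursors differ more than the mature strands. LIN28 is known to bind a GGAG motif near the end of the precursor loop, so the stretch between the mature arms was searched for GGAG on the RNA strand. It was found in 9 of the 12 hairpins that encode members (75%). Over all 645 hairpins it was found in 53 (8.22%), and in 16 of the 62 (25.8%) with a stretch of the same range of lengths. Both of these counts include the 12 hairpins of members and their 9 matches. The hairpins without it were those of let-7b, miR-98 and one of the 2 for let-7c. A match is only a description of the letters. The loops of let-7e, let-7i and let-7b are printed, with GGAG in capitals. These members lay farthest from the mean profile of the tested members over the arrays, let-7i barely beyond let-7g (0.218 against 0.215). A link between loop and profile was not tested.
Mirlet7e loop: gaggaagacacccgaGGAGauca
Mirlet7i loop: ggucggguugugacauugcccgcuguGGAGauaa
Mirlet7b loop: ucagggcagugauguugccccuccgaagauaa

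Each member was read by 2 probes of 10 spots. Detection of a probe required the deposited flag for signal well above background on over 0.5 of its spots, and detection of a miRNA required 1 such probe. By this rule 8 members were detected on every array except activin 2, which lacked let-7g and had 7. The share of all mouse miRNAs detected was far lower, ranging from 13.1% to 19.5% over the control arrays and from 8.84% to 19.5% over those with activin. Control 1 and activin 2 were the dimmest arrays, with a 75th percentile of detected probes of 249 and 177 intensity units against 427 to 616 on the other 4. Spots of 1 member probe varied by a median of 16.8% and 15.8% (coefficient of variation) on these 2 arrays and by 6.39% to 8.79% on the others. No member spot was saturated.

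In most members 1 probe carried the signal. The brighter let-7e probe (A_54_P2469) read 335, 788 and 414 intensity units on control 1, 2 and 3 and 646, 384 and 656 on activin 1, 2 and 3. The other let-7e probe averaged 74.9 over the arrays. The brighter let-7i probe (A_54_P2254) read 269, 861 and 385 in control and 374, 218 and 429.3 with activin. The brighter let-7b probe (A_54_P1290) read 125.01, 358 and 163 in control and 161, 105 and 165 with activin. Before scaling, control 2 was the brightest array for all 3 of these probes. The second probes of let-7f and let-7g were detected on no array, and that of let-7d on 1.

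miR-98 stood apart from the rest of the family. None of its 114 usable spots was well above background, and its 2 probes averaged between -2.68 and 8.39 intensity units on single arrays. Negative-control spots averaged 2.81 to 5.66 on the arrays, so miR-98 was not detectable at this signal in either group. It has no fold change. Its gene lies next to Mirlet7f-2 in RefSeq, and let-7f, which is also made from Mirlet7f-1, was detected on all 6 arrays.

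Activin and control did not differ past the threshold for any of the 8 tested members. Intensities were divided by the 75th percentile of the 59 probes detected on all arrays and put on a log2 scale, and limma tested 79 mouse miRNAs with Benjamini-Hochberg adjustment and a threshold of 0.05. The background was 1 of 79 miRNAs past it (1.27%), miR-302c, a miRNA of ES cells and epiblast. Its log2 fold change was 1.23 (limma adjusted p = 0.00597), but its groups overlapped, and it was detected on 2 of 3 control arrays. Control 1, at -4.83, lay near the lower limit set for log2 values, -4.94, and the SD over control arrays was 0.89. No member had an unadjusted p under 0.05, against 9 of the 79 (11.4%). The median log2 fold change of the members was -0.12, beside 0.17 for all 79. 7 of the 8 members lay below 0, against 36.7% of the 79, and 6 did when let-7 probes were left out of the scaling. Of those below 0, let-7g was detected on 2 of 3 activin arrays, so it entered the test only through control. Of the 79, 53 were detected on every array of both groups. The others entered through 1 group, so the filter itself can favour a direction in these counts. Most members also shared their array-to-array variation, so they are not independent values. The 2 groups overlapped in every member, and 5 of the 79 (6.33%) had all activin arrays below all control arrays. Among these 5, miR-1895, miR-714 and miR-10a were not detected on every activin array. They entered the test only through control, where they were higher, so the filter partly sets this share. In bulk RNA, fewer cells of a type and less RNA per cell cannot be told apart.

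**Figure D1:**
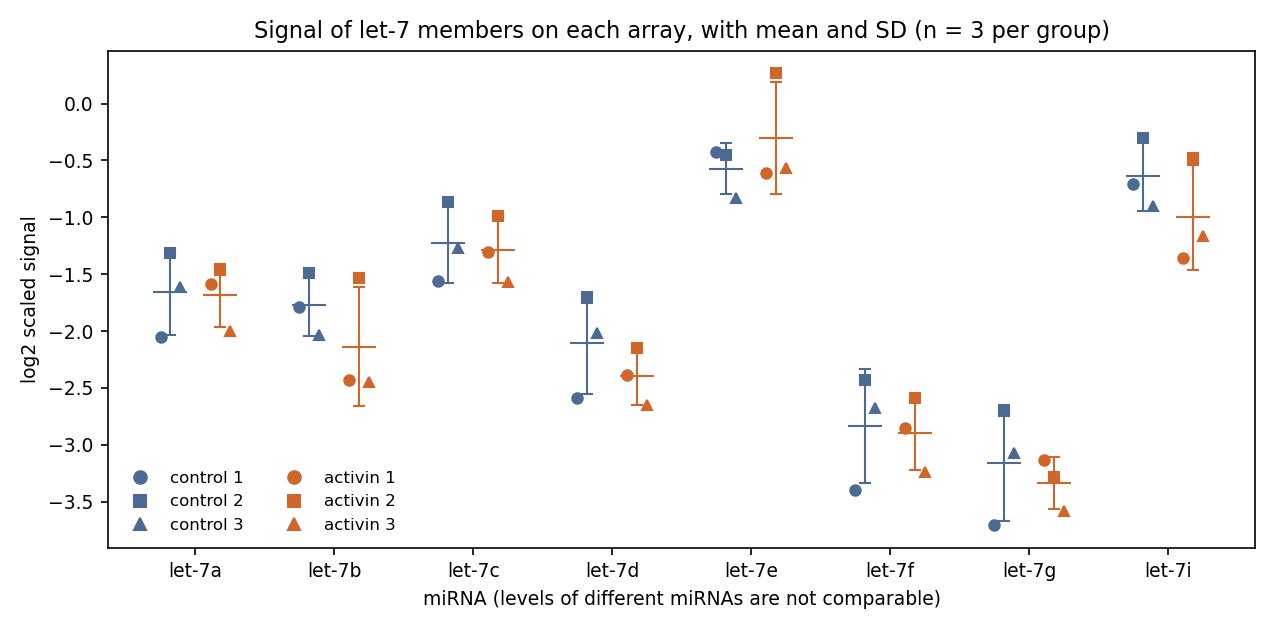
log2 scaled signal (vertical axis) of the 8 tested members on each array, with control and activin side by side; symbols are arrays, and bars give the mean and SD of 3 arrays. The groups overlap in all 8 members, and levels of different members cannot be compared because probes bind with different strength.

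let-7a, let-7c and let-7f showed the fold changes closest to 0. let-7a, the family's reference sequence with 2 genes in mouse, gave log2 scaled signals of -2.05, -1.31 and -1.61 on control 1, 2 and 3 and of -1.59, -1.47 and -1.998 on activin 1, 2 and 3. The lowest and the highest of the 6 were both control arrays. Its log2 fold change was -0.03 (95% interval -0.61 to 0.56, limma adjusted p = 0.956). let-7c gave -1.56, -0.86 and -1.27 in control and -1.30, -0.99 and -1.57 with activin. Its change of -0.06 was bounded by -0.64 and 0.52 (limma adjusted p = 0.941). let-7f gave -3.39, -2.43 and -2.68 in control and -2.85, -2.58 and -3.24 with activin, again with the control arrays at both ends. Its change was -0.06 (-0.64 to 0.53, limma adjusted p = 0.941).

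let-7d and let-7g were also within the spread. let-7d, whose gene lies with Mirlet7a-1 and Mirlet7f-1, gave -2.59, -1.71 and -2.02 in control and -2.38, -2.15 and -2.65 with activin. Activin 3 was lowest and control 2 highest, and the log2 fold change was -0.29 (-0.87 to 0.29, limma adjusted p = 0.619). let-7g, which has a gene of its own away from the other let-7 genes, gave -3.71, -2.70 and -3.07 in control and -3.14, -3.29 and -3.58 with activin, where activin 2 fell short of detection. Its change was -0.18 (-0.76 to 0.41, limma adjusted p = 0.810).

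let-7b and let-7i had the most negative values. let-7b, encoded beside Mirlet7c-2, gave -1.79, -1.49 and -2.03 in control and -2.43, -1.53 and -2.45 with activin. Activin 1 and activin 3 lay below all control arrays, and activin 2 lay among them. The log2 fold change was -0.37 (-0.95 to 0.22, limma adjusted p = 0.589), or 1.29-fold lower with activin. let-7i, another gene on its own, gave -0.71, -0.30 and -0.90 in control and -1.35, -0.48 and -1.17 with activin, with the same 2 activin arrays below control. Its log2 fold change was -0.36 (-0.95 to 0.22, limma adjusted p = 0.589).

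let-7e was the one tested member with a positive value. It is encoded in a cluster with Mir99b and Mir125a, and its base at position 9 (U9G), next to the seed, differs from that of all other members. It gave -0.43, -0.46 and -0.83 in control and -0.61, 0.27 and -0.56 with activin. Activin 2 was the highest of the 6 arrays, and the other activin arrays lay within the control range. The log2 fold change was 0.27 (-0.32 to 0.85, limma adjusted p = 0.649), and it was -0.18 without activin 2. SEs of the 8 members ran from 0.295 to 0.297, because limma pooled the variances over all miRNAs with 194.1 prior degrees of freedom. The interval of let-7a, from -0.61 to 0.56, reached least far from 0, and those of the other 7 members reached farther in at least 1 direction.

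**Figure D2:**
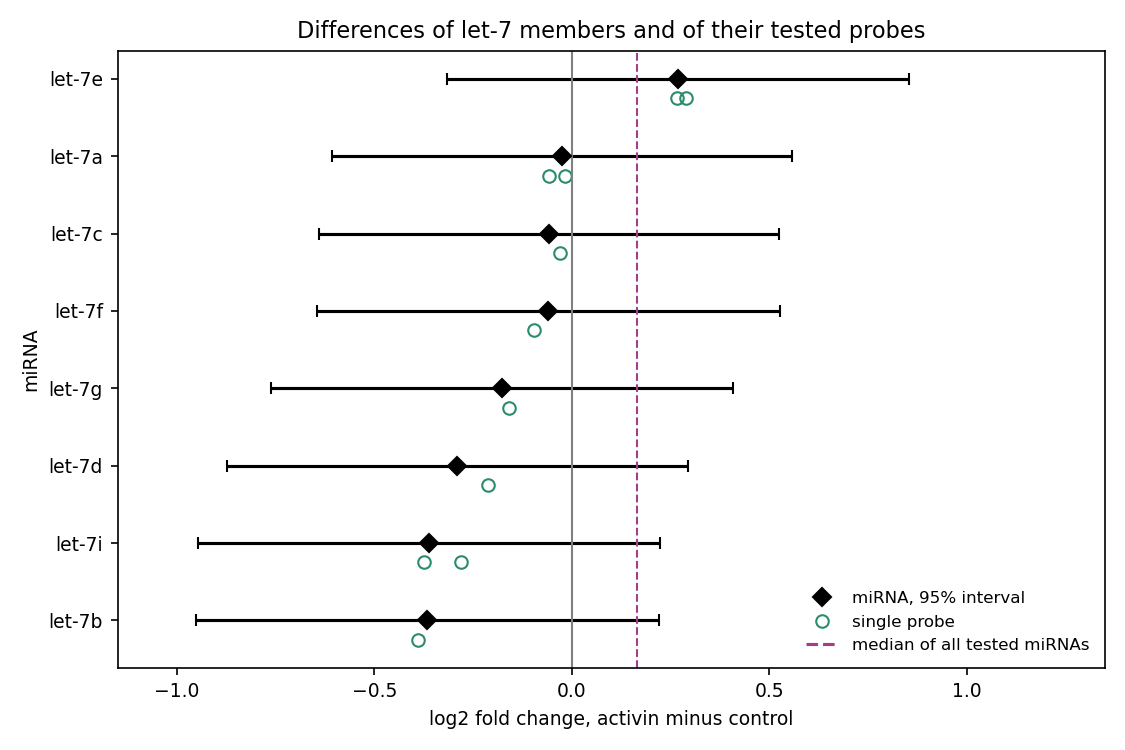
log2 fold change, activin minus control (horizontal axis), of the 8 tested members (diamonds, bars give the 95% interval) and of their 11 tested probes (circles), with the median of all 79 tested miRNAs dashed at 0.17. All intervals include 0, and 7 of the 8 diamonds lie left of 0 with let-7e to the right.

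Single probes were tested as well. A member's value is the mean of its own 2 probes and leans on the brighter, so likeness of probe and member values was fixed in advance. Of 105 probes tested with limma, 1 passed the threshold (0.952%), and it was none of the 11 probes of members. The let-7b probe had a log2 fold change of -0.39 and the 2 let-7i probes had -0.37 and -0.28. The 2 let-7e probes gave 0.29 and 0.27, and the 2 let-7a probes -0.06 and -0.02. The single tested probes of let-7d, let-7g, let-7f and let-7c gave -0.21, -0.16, -0.09 and -0.03. In each of the 3 members with 2 tested probes, both had the same sign, which was not set against other miRNAs with 2 tested probes.

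Array-to-array variation was shared by most members. Each profile was centred on its own mean over the 6 arrays and set against the mean profile of the 8 members by the root mean square difference in log2. let-7c was nearest at 0.056, followed by let-7a at 0.12, let-7d at 0.14 and let-7f at 0.16. let-7g, let-7i and let-7b followed at 0.22, 0.22 and 0.23, and let-7e was farthest at 0.32. The mean profile includes each member, which draws the distances of members down. Outside the family the median over 71 tested miRNAs was 0.39, but miR-23b at 0.11 and miR-99a at 0.14 fell among the members. Nearness to this profile is thus not particular to let-7. On control 2, for example, 7 members were above their own mean by 0.36 to 0.55, and let-7e was at -0.02.

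**Figure D3:**
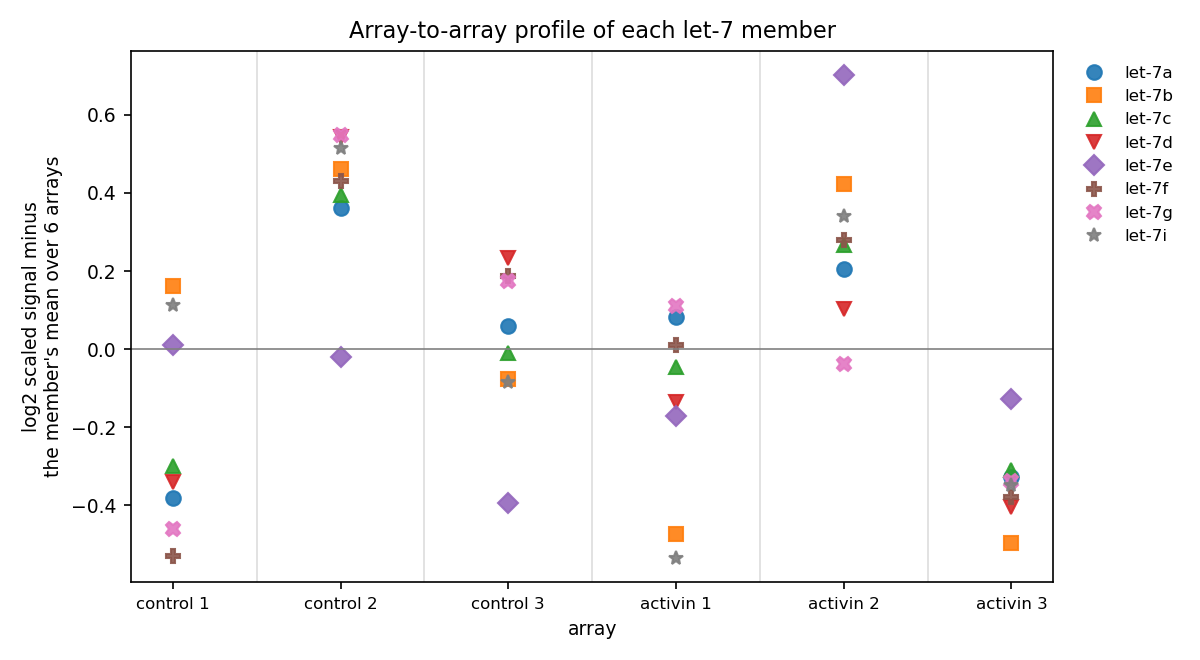
Centred log2 scaled signal (vertical axis, each member minus its own mean over 6 arrays) of the 8 tested members on each array (horizontal axis). On control 2 all but let-7e lie above 0 and on activin 3 all 8 lie below 0, whereas on activin 2 let-7e is highest at 0.70 and let-7g is at -0.04.

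Differences between members on the same array do not change when the whole array is divided by 1 factor. The difference between let-7a and let-7c, 1 base apart, was the steadiest, with an SD of 0.082 over the 6 arrays. The next was let-7b against let-7i, 3 bases apart, with an SD of 0.087. let-7b minus let-7i was -1.08, -1.19 and -1.13 in control and -1.07, -1.05 and -1.28 with activin. let-7b and let-7c are also 1 base apart, yet their difference had an SD of 0.31, as did let-7a and let-7e with 0.41. The most variable pair was let-7e and let-7g, 3 bases apart, at 0.56. The median SD was 0.21 over the 4 pairs at 1 base, 0.26 over 8 pairs at 2 bases, 0.28 over 8 pairs at 3 bases and 0.36 over 6 pairs at 4 bases, and the single pairs at 5 and 6 bases had 0.38 and 0.32. Pairs share members, so these medians are a description only.

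In 5 of the 28 pairs of tested members the within-array difference did not overlap between the groups, against a background of 22.7% of all 3081 pairs of tested miRNAs, so the count is no result about the family. These pairs were picked after their values were seen. let-7b minus let-7e was -1.37, -1.04 and -1.20 in control and -1.82, -1.80 and -1.89 with activin. The 3 activin arrays lay close together and below all control arrays, a change of -0.63. let-7e minus let-7i was 0.28, -0.15 and 0.07 in control and 0.75, 0.74 and 0.60 with activin, a change of 0.63. The other 3 pairs set let-7d against let-7a, let-7c and let-7f, and in each of them let-7d was relatively lower with activin. With the brightest probe of each miRNA alone, 3 of the 5 pairs still did not overlap (background 20.7%), those of let-7e with let-7b and let-7i and that of let-7d with let-7f.

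The size and the sign of the differences varied with the arrays used. Slide positions were taken from the names of the scans. By these, column 1 of the slide held control 1 with activin 2, and column 2 held control 2 with activin 3. Within column 1, activin minus control was positive for all 8 members, with a median of 0.51 beside 0.50 for all 79 miRNAs. Within column 2 it was negative for all 8, with a median of -0.84 beside 0.03. These 2 columns each held 1 array per group, so these values have no replicate error, and control 3 and activin 1 were alone in columns 3 and 4. With the column as a block in limma, which takes the contrast from the 4 arrays of columns 1 and 2, the median of the members was -0.15, beside 0.24 for all 79, and no member passed the threshold.

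On the 4 brighter arrays, scaled anew, the median of the members was -0.46, beside 0.01 for the same 79 miRNAs. let-7b changed by -0.65, let-7d by -0.63 and let-7i by -0.63, and let-7e by 0.08. let-7b, d, f and g then had both activin arrays below both control arrays, 4 of 8 members against 25.3% of the 79. Below 0 were 7 of the 8 members and 48.1% of the 79. Most members shared their array-to-array variation, so members in these counts are not independent values. With limma no miRNA of 115 passed the threshold on these arrays, 8 of them having an unadjusted p under 0.05. The lowest adjusted p of a member was 0.433, in a range of 0.295 to 0.997 for that lowest value over all settings. Without activin 2 alone, all 8 members were below 0 with a median of -0.37, beside -0.04 for the same 79 miRNAs. 3 of the 8 had an unadjusted p under 0.05, as had 10 of the 111 miRNAs tested there. let-7b was then at -0.83 and let-7i at -0.79, with a lowest limma adjusted p of 0.451. Without control 2 alone the median was 0.09, beside 0.20 for all 79, and 3 members were below 0 and 7 below the median of all 79. Without activin 3 alone the median was 0.015, beside 0.20.

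**Figure D4:**
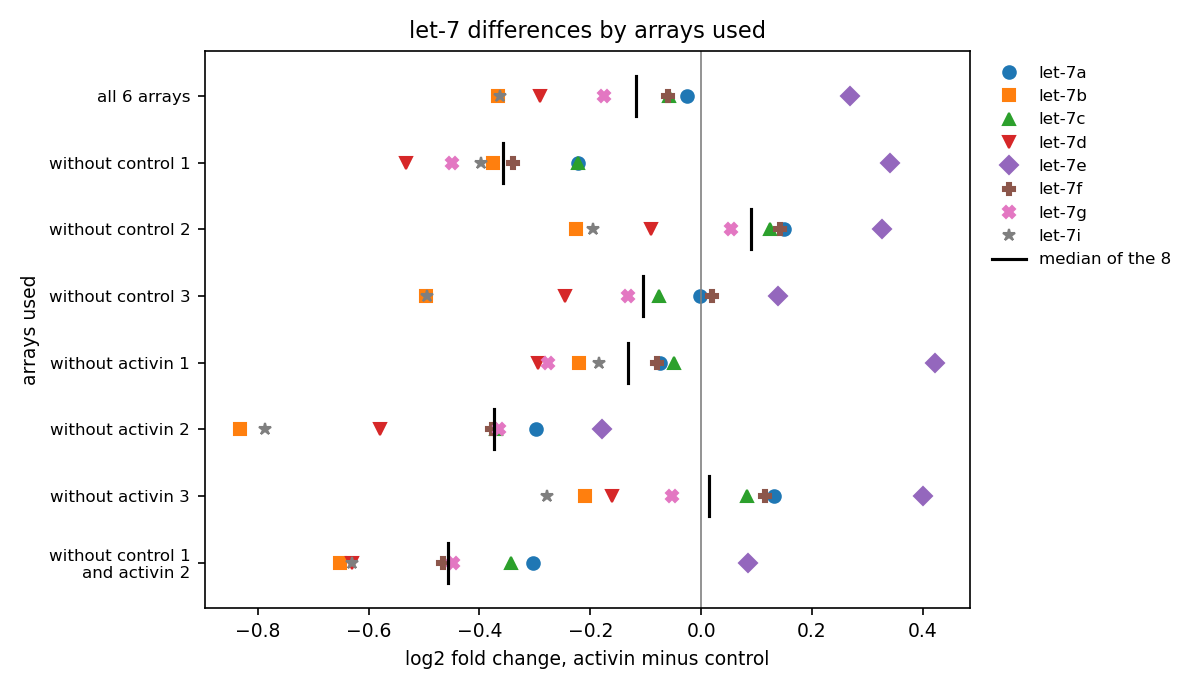
log2 fold change, activin minus control (horizontal axis), of the 8 tested members (symbols) and their median (black bar) with all arrays, with each array left out and on the 4 brighter arrays (vertical axis). The median runs from -0.46 on the 4 brighter arrays to 0.09 without control 2.

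let-7 genes are neighbours of other miRNA genes, which can share a primary transcript. Mirlet7c-1 lies beside Mir99a and Mir125b-2, Mirlet7a-2 beside Mir100 and Mir125b-1, and Mirlet7e beside Mir99b and Mir125a. Of the 5 listed mature neighbours (miR-99a, miR-99b, miR-100, miR-125a-5p and miR-125b-5p) 4 were tested, and none passed the threshold. miR-100 gave -3.46, -2.81 and -3.78 in control and -3.90, -4.12 and -3.77 with activin, where it was detected on 2 of 3 arrays. Its log2 fold change was -0.58 (-1.16 to 0.0032, limma adjusted p = 0.405). miR-99a was at -0.10, miR-125b-5p at 0.15 and miR-125a-5p at 0.35 (limma adjusted p = 0.614). miR-99b was detected on 1 control and 1 activin array and was not tested. RefSeq also places Mir135a-1 beside Mirlet7g and Mir3113 beside Mirlet7f-2 and Mir98, outside that list. The strand named miR-135a-1* was at -0.14 (limma adjusted p = 0.813), and no miR-3113 was tested.

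The passenger strands of the family, which are mostly degraded after the mature strand is loaded, were measured for 7 let-7 hairpins. None was detected on any array, and their mean signals lay between -5.50 and 15.5 intensity units. The miRNAs outside the family with profiles nearest to the mean let-7 profile over the 6 arrays were miR-23b (root mean square difference 0.11), miR-99a (0.14), miR-210 (0.22), miR-30a (0.24) and miR-34a (0.25). The median over the 71 other tested miRNAs was 0.39. Of these 5 only miR-99a is encoded beside a let-7 gene.

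Markers of the cell type were read on the same arrays. Of 7 mouse ES cell miRNAs, 5 were detected. The summed scaled signal of all 7 was 5.96 to 15.8 in control and 5.32 to 7.33 with activin. On control 1, a dim array, miR-292-3p was at 3.22 in log2, against 1.58 and 1.89 on control 2 and 3. The 5 detected had log2 fold changes of -0.74 to -0.37, none past the threshold, and 36.7% of the 79 were below 0. miR-291a-3p was lower with activin without overlap, and miR-292-3p, miR-293, miR-294 and miR-295 overlapped. The 5 epiblast miRNAs, miR-302c among them, summed to 0.20 to 0.55 in control and 0.34 to 0.63 with activin. All 5 were detected on at least 1 array, but 0 on every control array and 1 on every activin array. Part of these sums is therefore signal below detection. The 6 mesenchymal or fibroblast miRNAs summed to 1.76 to 2.49 in control and 2.68 to 2.91 with activin, without overlap. Of these, 4 were detected, and miR-143 and miR-145 were not. miR-21 was the brightest of the 4, so the mesenchymal sum leans on it. Its log2 scaled signals were 0.08, 0.44 and 0.54 in control and 0.64, 0.69 and 0.63 with activin. Taken singly, miR-21 and miR-214 did not overlap between the groups, and miR-199a-3p and miR-199a-5p did. The background was 14 of the 79 tested miRNAs without overlap in either direction (17.7%). Higher with activin without overlap were 9 of the 79 here and 0 with no scaling. Detected on at least 1 array were 3 of 5 epithelial, 2 of 4 neural and 1 of 4 striated muscle miRNAs, and the single endothelial one. None of the blood, liver and gut, or islet miRNAs was detected. The part of these cells in the let-7 values was not tested.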

How the data were processed

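miRNA levels were measured on 6 single-colour arrays, 3 per group by title. The deposited values are spot intensities, background-subtracted by Agilent Feature Extraction (10.7.3.1 per the file headers, 10.1.1 per the submitters' processing notes, not reconciled); no scaling across arrays is named there. The deposited series table holds the same linear, uncentred intensities (column medians 1.52, 1.77, 1.29, 1.84, -0.0489 and 1.24, control first) and was not otherwise used. Spots with an outlier flag were dropped, and intensities were averaged over spots and then over probes on the linear scale. They were divided by each array's 75th percentile over 59 probes detected on all arrays, floored at 0.0326 (log2 of -4.94; no tested member lay at the floor) and converted to log2. Tested were the 79 miRNAs (105 probes) found in every array of 1 group or both, with limma 3.58.1 in R 4.3.3, two-sided; the test was checked on simulated data. The number of arrays limits the precision. The members and lists were chosen with earlier results of these data known. Named were all members, gene neighbours, passenger strands, the 5 likest miRNAs and any past the threshold. Array names follow the design (mm9) and RefSeq is GRCm38.p6, so no coordinates are given. Alternatives covered scaling, background, filter, floor, probe summary, blocks and arrays left out. normexp used the median spot signal in place of the planned mean signal. Replicate numbers were not used to pair the samples in the main test, and whether they do so is not known.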

Additional observations from a re-analysis of the deposited data

How the results depend on the processing

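No let-7 member passed the limma threshold under any of the 23 alternatives. Of 183 member values, 173 kept their direction and 10 reversed. Filters, floors and the replicate block cannot move these member values, so the count of 173 is no sign of stability. let-7a reversed to 0.024 when let-7 probes were left out of the scaling. With 1 array left out, the ranges were -0.30 to 0.15 for let-7a, -0.37 to 0.12 for let-7c, -0.18 to 0.42 for let-7e, -0.38 to 0.14 for let-7f and -0.45 to 0.054 for let-7g. The other members stayed below 0, with let-7b at -0.83 to -0.21, let-7d at -0.58 to -0.09 and let-7i at -0.79 to -0.19. The median of the members, -0.12, moved to -0.49 with normexp, where the median of all 79 moved from 0.17 to -0.31, and to -0.46 on the 4 brighter arrays. It was -0.35 with spike-in scaling, -0.34 with quantile scaling, -0.28 over all probes, -0.27 with the median of detected probes and with the software's total signal, -0.19 with no scaling and -0.069 without let-7 probes in the scaling. It ran from -0.37 to 0.09 with 1 array left out. Members detected on all 6 arrays numbered 7, or 8 by the software's own call and 6 where all spots had to be above background. The change in let-7e minus let-7b, 0.63, lay between 0.55 and 0.74. The pair was chosen after seeing the data for groups that did not overlap, and 1 factor per array, filters and floors cannot move it, so this range is no sign of stability. The causes of these shifts were not tested.

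The background count of 1 miRNA in limma fell to 0 when scaled to the 75th percentile over every probe, without let-7 probes in the scaling, with quantile, no or spike-in scaling, normexp, no filter, detection in both groups, a floor at 2 times, the mean of log2, the brightest probe, the software's total signal (added after seeing the data) and the 4 brighter arrays. In these, 0 to 15 miRNAs had an unadjusted p under 0.05. With 1 array left out it was 0 to 1. The probe count of 1 was 0 under those scalings, background, filters, floor and arrays, 2 with the median of detected probes, and 0 to 1 with 1 array left out. With no filter most residual variances were 0, and limma's variance estimate is unreliable there. With a replicate block 1 miRNA was called and the median of the members was -0.12, so it changed no call. Same-numbered arrays correlated at -0.64, -0.09 and 0.34 after each group was centred on its own mean. Centring ties these correlations together, so they cannot decide whether the numbers pair the samples. Without control 1 or activin 2 more miRNAs were tested, 107 and 111. Signal over background limits miR-98, let-7g and the passenger strands.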
